A study of Mus musculus with 60 samples.

Results

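The heat shock proteins of the cytosol and the mitochondria were followed in mouse hepatocytes as a family of 10 genes, namely Hspa8, Hspa1a, Hspa1b, Hsp90aa1, Hsp90ab1, Hspd1, Hspe1, Hsph1, Dnajb1 and Hspb1. The members were every array probe annotated with one of these symbols, which gave 8 probes of 7 genes among 21997 probes. Hspa8 had 2 probes, called here A (probe number 1231196) and B (1234589), and Hspa1b, Hsp90aa1 and Hsp90ab1 were not analysed here because no probe carried their symbols. All 8 member probes passed the probe filter, as did 14580 probes in all.

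The study compared primary hepatocytes of male mice 9 to 10 weeks old that were Alb-Cre +/-; Met Fl/Fl (KO, strain label 129SV/C57BL6) with hepatocytes of Cre-carrying control mice (WT, strain label C57BL). Alb-Cre cuts floxed alleles in cells that use the albumin promoter, so Met, the receptor of hepatocyte growth factor (HGF), is removed in hepatocytes, and both genotypes carry Cre. Cultures were plated in serum, kept serum-free from 4 h on, and either left untreated (0 h) or given HGF at 50 ng/ml, with harvests at 0.5 h, 2 h, 12 h and 24 h. Each of these 5 times in each genotype was a group of 3 replicates, 10 groups in all. Every replicate was hybridised on 2 arrays, once in Cy5 and once in Cy3, beside a pool of WT hepatocyte RNA in the other dye, which makes 60 arrays, and the deposited values were normalized log2 ratios.

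Strain and genotype changed together in every comparison of KO and WT, and time in culture changed together with HGF, since no untreated cultures of later times were analysed here. The labels say that cultures came from 3 individual mice. They do not say which times share a mouse. A positive log2 ratio is taken as more RNA in the sample than in the pool, the likely reading because the labels list the sample as the second channel on every array. Array numbers in the labels fall into 4 sets, called A, B, C and D. Set D held the 0.5 h samples and, apart from KO replicate 3, those of 2 h, set C held the 12 h samples, and untreated and 24 h samples came from A, B or C. The 0.5 h and 2 h responses can therefore hardly be told apart from array set, whereas KO and WT at 0.5 h lay within set D and at 12 h within set C. The Met probe did not separate the genotypes (KO minus WT averaged over the 5 times 0.08 ± 0.08, adjusted p = 0.648 in limma). No label places that probe inside or outside the deleted stretch, so it checks nothing about the deletion.

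Heat shock proteins are chaperones that keep other proteins folded. Small heat shock proteins such as Hspb1 hold unfolding proteins without using ATP, HSP70 proteins bind and release short exposed stretches in cycles started by J proteins and reset by exchange factors, and the Hspd1 and Hspe1 chaperonin folds proteins inside a closed chamber in mitochondria. Under heat or other proteotoxic stress, heat shock factor 1 binds heat shock elements, repeats of the unit GAA in alternating orientation, and raises transcription of many of these genes. Hspa8 is the constitutive HSP70 of the cytosol, while Hspa1a is the strongly inducible one.

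The promoters of these genes are shown because they can be read for the GAA repeats just described. RefSeq (GRCm38.p6) windows of 250 bases before to 50 bases after each start were searched for the 2-unit motifs GAANNTTC and TTCNNGAA, each of which reads the same on both strands, and for 3 units in a row (GAANNTTCNNGAA or TTCNNGAANNTTC, which contain the 2-unit motifs). Of the 10 genes, 7 had a window, with 10 windows among them. A 2-unit match lay in 7 of these 10 windows, from 6 genes, and in 15.1% of all 32851 windows. Hspe1 and Hspd1 hold the same matched bases, as do the near-identical Hspa1a and Hspa1b, and the 2 overlapping windows of Hsph1. The windows are therefore not independent. Dnajb1 had 2 windows without a match, and Hspa8, Hsp90aa1 and Hsp90ab1 are named only. A run of 3 units occurred in 0.603% of all windows and in windows of Hspe1, Hspd1 and Hsph1. In the stretches below, the capitals mark the GAA and TTC units of each 2-unit match.
Hspe1, chr1:55088039-55088096 (+ strand), shared with a start of Hspd1 on the other strand: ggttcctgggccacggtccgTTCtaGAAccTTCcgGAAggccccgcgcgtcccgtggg
Hspb1, chr5:135887782-135887849 (+ strand): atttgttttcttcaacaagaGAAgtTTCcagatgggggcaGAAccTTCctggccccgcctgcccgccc
Hsph1, chr5:149636342-149636389 (- strand): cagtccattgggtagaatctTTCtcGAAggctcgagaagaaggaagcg
Hspa1a, chr17:34972233-34972280 (- strand): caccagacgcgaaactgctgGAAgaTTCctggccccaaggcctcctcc
In Hspe1 the units lay at -89 to -72 relative to the start, as 4 units in a row, and the same bases lay at -144 to -127 relative to a start of Hspd1, the gene that is read in the opposite direction from there. Hspb1 held 2 separate pairs, and the 3 units in a row of Hsph1 lay after its start, outside the stretch shown. The windows of Hspa1a and Hspa1b were identical at 296 of 300 bases, so the genes are near-identical copies there, and whether the Hspa1a probe also bound Hspa1b RNA was not tested. A match describes these letters only.

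Hspb1, the small heat shock protein, stood furthest above the pool. Its log2 ratio was positive in 29 of 29 replicates and its mean over them ranked 1 among the 14580 probes tested, which orders ratios to the pool and not amounts of RNA. The place rests on the direction of the Cy3 arrays, which is not settled in every comparison: with their sign turned, its mean was 0.38 in place of 1.87, with rank 264 and 26 of 29 replicates above 0. The ratio was above 0 on 29 of 29 arrays with the sample in Cy5 and on 28 of 29 with the sample in Cy3. In the 12 h groups it averaged 2.46 ± 0.21 in KO and 2.59 ± 0.12 in WT (SD, n = 3 each), or 5.48-fold and 6.03-fold the pool. The lowest group was WT 2 h at 1.34 ± 0.08 (SD, n = 3). In order of their means the groups were WT 12 h, KO 12 h, KO 24 h, WT 0.5 h, KO 0 h, KO 2 h, KO 0.5 h, WT 24 h, WT 0 h and WT 2 h. Neighbours in this order had overlapping replicates in all 9 pairs.

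The chaperonin genes followed at lower ratios. Hspe1, the lid of the mitochondrial chaperonin, was above the pool in 28 of 30 replicates and ranked 59, and Hspd1, its folding chamber, was above it in 26 of 30 and ranked 109. Hsph1, an HSP110 protein that serves as an exchange factor for HSP70, was above it in 28 of 30 and ranked 268. With the Cy3 sign turned these became 29 of 30 and rank 108 for Hspe1, 26 of 30 and rank 1127 for Hspd1, and 25 of 30 and rank 2380 for Hsph1. Hspe1 ranged over group means from 0.14 (KO 2 h) to 1.01 (WT 12 h), Hspd1 from 0.07 (KO 2 h) to 0.86 (WT 12 h), and Hsph1 from 0.09 (KO 2 h) to 0.71 (WT 12 h). Averaged over both orientations, all 3 genes thus had the same highest and the same lowest group. This held with the sample in Cy5 but for none of the 3 with the sample in Cy3. In Cy3, Hspe1 was highest in KO 12 h (0.37) and lowest in WT 0.5 h (-0.14). Hspd1 was highest there in WT 0.5 h (0.61) and Hsph1 in WT 0 h (0.32), and both were lowest in WT 24 h (-0.58 and -0.33). Replicates of neighbouring groups overlapped in all 9 pairs for Hspd1 and Hsph1 and in 8 of 9 for Hspe1, where KO 12 h lay just below WT 12 h.

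With the arrays as deposited, the HSP70 probes and Dnajb1 stayed nearer to the pool. Hspa8 probe A was above the pool in 20 of 30 replicates, with group means from -0.13 (KO 0.5 h) to 0.84 (WT 12 h). Hspa8 probe B was above it in 11 of 30, with group means from -0.52 (KO 24 h) to 0.28 (WT 0 h). Hspa1a, the inducible HSP70, was above it in 12 of 30 and spanned -0.33 (WT 2 h) to 0.22 (KO 12 h). Dnajb1, the J protein that starts the HSP70 cycle, was above it in 21 of 26 replicates with values on both arrays, with group means from -0.05 (KO 0.5 h, n = 2) to 0.34 (WT 12 h, n = 3). With the Cy3 sign turned, the means over replicates were 0.28 for Hspa8 A, -0.33 for Hspa8 B and -0.28 for Hspa1a. Hspd1 then had 0.29 and Hsph1 0.24, so the HSP70 probes lay about as far from the pool as these genes. Replicates above 0 became 26 of 30 for Hspa8 A, 8 of 30 for Hspa8 B, 4 of 30 for Hspa1a and 16 of 26 for Dnajb1. Across the 30 replicates as deposited the pair of Hspa8 probes went different ways (Pearson r = -0.17), so the gene has no single value here.

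**Figure D1:**
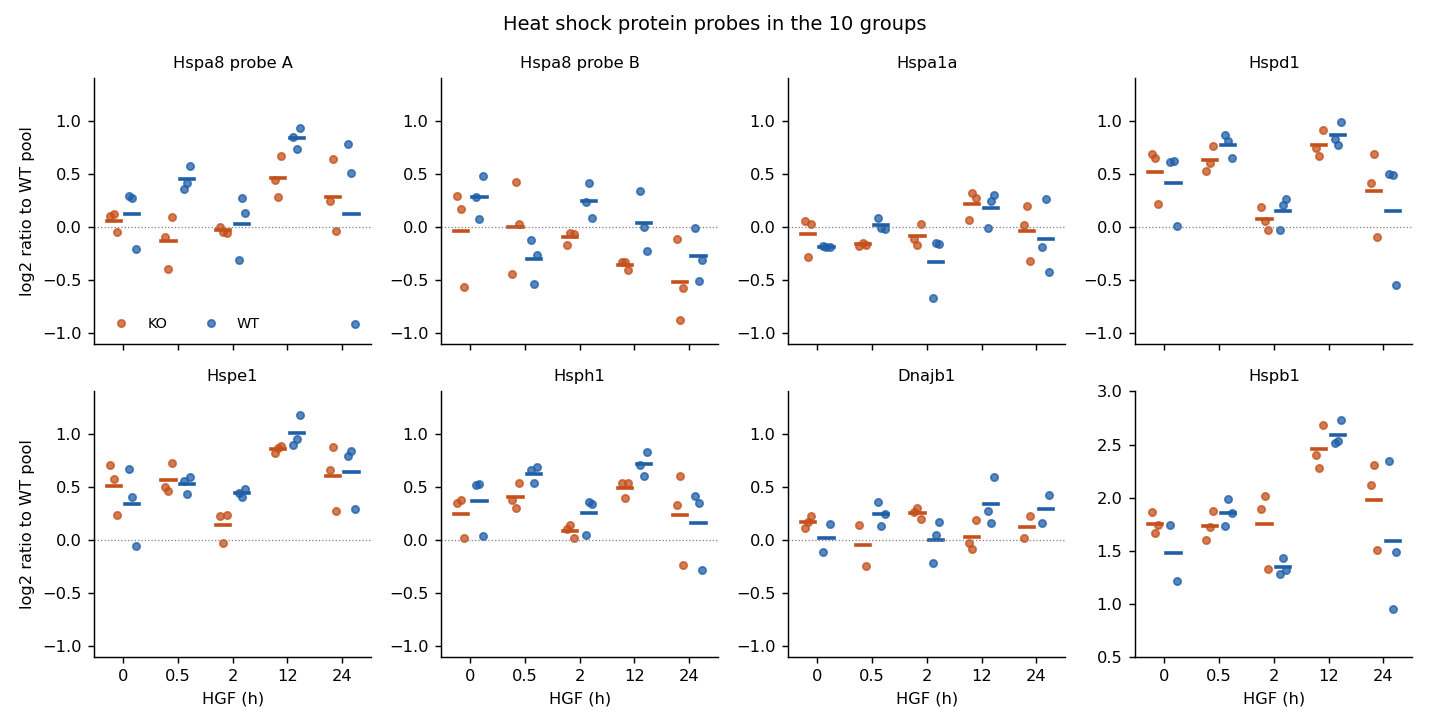
Mean log2 ratio of each replicate to the WT pool (vertical axis) by hours of HGF (horizontal axis, 0 is untreated) for the 8 member probes, KO left of WT at each time. Points are replicates and bars group means, and the Hspb1 panel has its own axis because all its replicates lie between 0.95 and 2.73. In these averages of both orientations, Hspd1, Hspe1 and Hsph1 peak in WT 12 h and dip in KO 2 h.

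No member differed between KO and WT hepatocytes at the threshold used, an adjusted p under 0.05 in limma over all 14580 probes. In untreated cultures 0 of 8 member probes were called, where 0.0617% of all probes were called, and 0 of 8 had an unadjusted p under 0.05. Untreated Hspb1 was 1.86, 1.67 and 1.74 in KO replicates, against 1.74 and 1.21 in the 2 WT replicates with a value. The groups overlapped (KO minus WT 0.28 ± 0.28, 95% interval -0.29 to 0.85). Untreated Hspe1 was 0.71, 0.58 and 0.23 in KO, against 0.67, 0.41 and -0.06 in WT, which also overlapped. Over the 8 probes the differences ran from -0.32 to 0.28 and their intervals from -0.77 to 0.85.

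At 0.5 h, 0 of 8 member probes were called, while 4.3% of all probes were, and 1 of 8 had an unadjusted p under 0.05. That probe was Hspa8 A, at -0.09, -0.40 and 0.09 in KO and 0.36, 0.41 and 0.58 in WT. All KO replicates lay below all WT replicates, and the difference was the same way with the sample in Cy5 (-0.40) and in Cy3 (-0.76). KO minus WT was -0.58 ± 0.27 (95% interval -1.14 to -0.02, adjusted p = 0.22), which is not called. It was called without array sets A and B, with the array set as a term and in a fit of only these groups. It was also called with weights by group spread and without WT 24 h replicate 3. Adjusted p in these fits was between 0.0187 and 0.0433. No member was called at 0.5 h in 12 of 16 settings and in 29 of 30 fits with a replicate left out. For Hspa8 B, KO minus WT at 0.5 h was 0.31 ± 0.22, of opposite sign to Hspa8 A. Groups did not overlap for 2 of 8 probes, the other being Hspa1a (-0.18 ± 0.16), beside 38.3% of all probes.

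At 2 h, 0 of 8 member probes were called against 0.432% of all probes, and 0 of 8 had an unadjusted p under 0.05. Hspe1 was 0.23, -0.03 and 0.24 in KO, against 0.44, 0.41 and 0.48 in WT, without overlap (KO minus WT -0.30 ± 0.17, adjusted p = 0.692). Groups did not overlap for 3 of 8 probes, beside 26.9% of all probes. Hspb1 was 1.89, 2.02 and 1.33 in KO, against 1.28, 1.43 and 1.32 in WT, and overlapped. At 12 h, 0 of 8 were called against 2.84% of all probes, and 1 of 8 had an unadjusted p under 0.05. That was Dnajb1, at -0.03, -0.09 and 0.19 in KO and 0.28, 0.16 and 0.59 in WT, which overlapped (KO minus WT -0.32 ± 0.14, adjusted p = 0.3). Hspa8 A was 0.44, 0.28 and 0.67 in KO, against 0.84, 0.73 and 0.94 in WT, without overlap (-0.37 ± 0.27, adjusted p = 0.589), and Hspa8 B was -0.33, -0.33 and -0.40 in KO, against 0.34, 0.00 and -0.22 in WT, also without overlap (-0.39 ± 0.22, adjusted p = 0.458). Groups did not overlap for 4 of 8 probes, beside 27.9% of all probes. Of the 8 probes, 7 had a negative difference at 12 h, with a median of -0.18 beside 0.00 over all probes tested. At 24 h, 0 of 8 were called against 4.77% of all probes, and 0 of 8 had an unadjusted p under 0.05.

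Averaged over the 5 times, 0 of 8 member probes were called while 10.1% of all probes were, and 0 of 8 had an unadjusted p under 0.05. The averaged differences ran from -0.20 (Hspa8 B) to 0.16 (Hspb1), and their 95% intervals from -0.43 to 0.39. A genotype difference in the average beyond those bounds is therefore outside the intervals of all 8 probes, but smaller ones were not resolved.

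**Figure D2:**
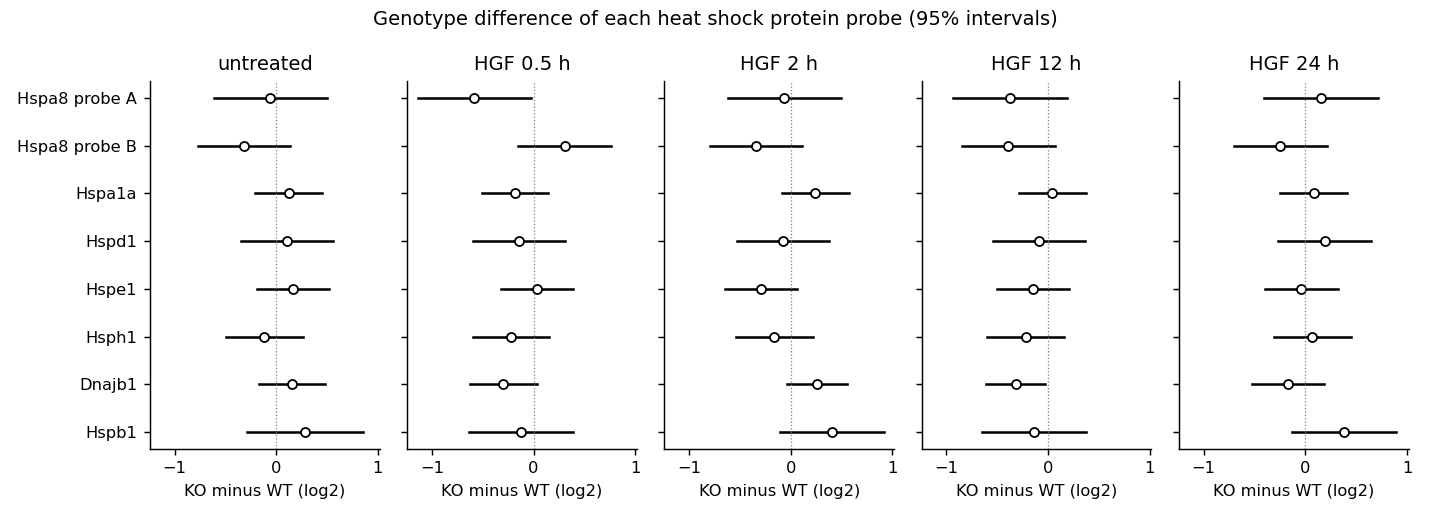
KO minus WT (log2, horizontal axis) for each member probe (rows) in untreated cultures and at each HGF time (panels), as points with 95% intervals from limma. Open points are not called, which holds for every value shown, and at 0.5 h the interval of Hspa8 probe A ends at -0.02.

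In WT hepatocytes 2 heat shock genes rose 12 h after HGF. Hspb1 was 2.52, 2.53 and 2.73 in WT at 12 h, against 1.74 and 1.21 in the 2 untreated WT replicates with a value. It was higher in 3 of 3 treated replicates than in either untreated one, and the difference was 1.12 ± 0.28 (95% interval 0.55 to 1.69, 2.17-fold, adjusted p = 0.0184 in limma). Hspe1 was 0.90, 0.95 and 1.18 in WT at 12 h, against 0.67, 0.41 and -0.06 in untreated WT. All treated replicates were again above all untreated ones, with a difference of 0.67 ± 0.17 (95% interval 0.31 to 1.02, 1.59-fold, adjusted p = 0.0221). These 2 of 8 member probes were called, where 5.81% of all probes were.

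The other members of WT at 12 h missed the threshold. Of the 8 member probes, 7 had positive differences and 5 an unadjusted p under 0.05, beside 20.2% of all probes, with a median of 0.41 beside 0.02 over all probes tested. Hspa8 A was 0.84, 0.73 and 0.94 in WT at 12 h, against 0.29, 0.27 and -0.21 in untreated WT (0.72 ± 0.27, adjusted p = 0.12). Hspd1, the chaperonin partner of Hspe1, was 0.83, 0.78 and 0.99 at 12 h, against 0.61, 0.62 and 0.01 untreated. Its difference was 0.45 ± 0.22 (adjusted p = 0.256), and the groups did not overlap. Hspa1a was -0.01, 0.24 and 0.30 at 12 h, against -0.18, -0.19 and -0.19 untreated (0.36 ± 0.16, adjusted p = 0.191). Hsph1 and Dnajb1 had differences of 0.35 ± 0.18 and 0.33 ± 0.16, and Hspa8 B had -0.24 ± 0.22. Replicates of WT 12 h and untreated WT did not overlap for 7 of 8 probes, all but Hspa8 B, beside 24.9% of all probes.

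The lowest untreated WT value of Hspa8 A, Hspd1, Hspe1 and Hsph1 was that of WT 0 h replicate 3, in array set B. The direction of its Cy5 array is unsettled: 19 pairs of arrays of the same orientation correlated under -0.3, and all 19 included it. With the sign of that array turned, Hspe1 differed by 0.57 (adjusted p = 0.0322) and stayed called. Hspb1, without a value on it, also stayed called (adjusted p = 0.018). Within set C, with 3 treated and 2 untreated replicates, Hspe1 differed by 0.47, Hspd1 by 0.25, Hspa8 A by 0.56, Hspa8 B by -0.14 and Hspb1 by 1.12, since replicate 3 had no Hspb1 value. Without replicate 3 the Hspe1 call was lost (adjusted p = 0.164), as was the Hspb1 call without WT 0 h replicate 2 (0.85, adjusted p = 0.165), where 1 untreated value remains and is assumed to vary like the other groups. Both were lost without WT 12 h replicate 2 or without WT 12 h replicate 3. Both calls were lost with Cy3 arrays alone and after scale normalization, where Hspb1 differed by 0.91 and 0.39 and Hspe1 by 0.20 and 0.35. With the sign of all Cy3 arrays turned, Hspb1 differed by 0.21 and Hspe1 by 0.47, neither called. Over all array probes with at least 2 values per group in each orientation, the Cy5 and Cy3 estimates of this comparison correlated at -0.31. The orientations thus did not go the same way in general.

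In KO hepatocytes no member was called at 12 h (0 of 8, beside 0.13% of all probes), and 1 of 8 had an unadjusted p under 0.05. Hspb1 was 2.40, 2.28 and 2.68 in KO at 12 h, against 1.86, 1.67 and 1.74 in untreated KO. These groups did not overlap, and the difference was 0.70 ± 0.25 (95% interval 0.19 to 1.21, adjusted p = 0.332). Hspe1 was 0.82, 0.87 and 0.89 in KO at 12 h, against 0.71, 0.58 and 0.23 untreated, also without overlap (0.35 ± 0.17, adjusted p = 0.599). Hspd1 was 0.74, 0.67 and 0.91 at 12 h, against 0.69, 0.65 and 0.22 untreated, which overlapped. Groups did not overlap for 5 of 8 probes, beside 18.3% of all probes. Differences were positive for 6 of 8 probes, with a median of 0.27 beside 0.01 over all probes tested.

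A call in WT and none in KO does not show that the genotypes responded differently, so the difference of the responses was tested. At 12 h, 0 of 8 member probes were called against 0.0754% of all probes, and 1 of 8, Dnajb1, had an unadjusted p under 0.05. The KO response minus the WT response was -0.42 ± 0.37 for Hspb1 (95% interval -1.18 to 0.35) and -0.31 ± 0.24 for Hspe1 (95% interval -0.82 to 0.19). For Dnajb1 it was -0.47 ± 0.21 (adjusted p = 0.754), with a KO response of -0.15 ± 0.14 and a WT response of 0.33 ± 0.16. All 8 estimates were negative, but they share the untreated samples and the probes are not replicates of each other.

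**Figure D3:**
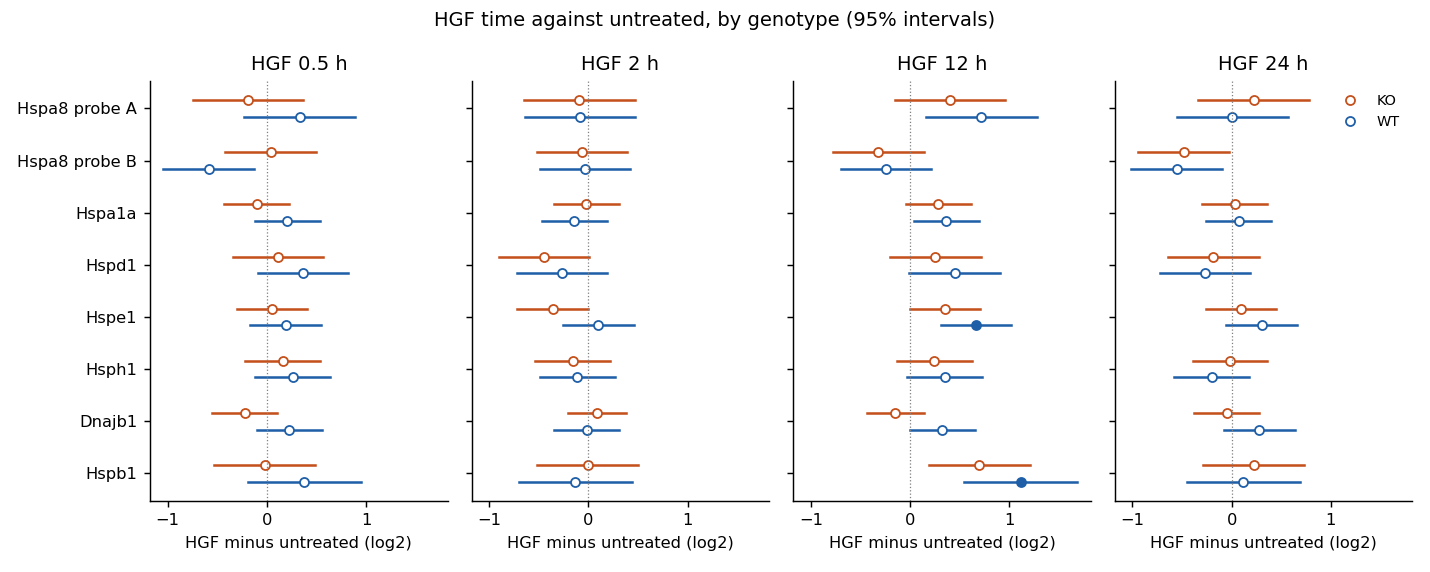
HGF time minus untreated (log2, horizontal axis) for each member probe (rows) at 0.5, 2, 12 and 24 h (panels), KO above WT in each row, with 95% intervals from limma. The filled points are the 2 called values, Hspb1 (1.12) and Hspe1 (0.67) in WT at 12 h.

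At the other times no member was called in either genotype. At 0.5 h the calls were 0 of 8 in KO (0.00686% of all probes) and 0 of 8 in WT (0.123% of all probes). At 2 h they were 0 of 8 in KO (0.0343%) and 0 of 8 in WT (0.446%). At 24 h they were 0 of 8 in KO (3.48%) and 0 of 8 in WT (8.72%). An unadjusted p under 0.05 was reached by 0, 1 and 1 probes in KO and by 1, 0 and 1 in WT at 0.5, 2 and 24 h. The difference of the responses was called for 0 of 8 at 0.5 h (0.00686% of all probes), 0 of 8 at 2 h (0.0274%) and 0 of 8 at 24 h (0.727%), with 0 of 8 under an unadjusted p of 0.05 each time.

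Some probes had groups that did not overlap at the early times, where array set and time can hardly be told apart. At 0.5 h in WT these were 5 of 8 probes, beside 20.8% of all probes. Above untreated WT without overlap lay Hspa8 A (0.33 ± 0.27), Hspa1a (0.20 ± 0.16), Hspd1 (0.36 ± 0.22) and Hsph1 (0.26 ± 0.18), with adjusted p between 0.451 and 0.583, and 7 of 8 differences were positive. Hspd1 at 2 h was 0.19, 0.06 and -0.03 in KO, against 0.69, 0.65 and 0.22 untreated, without overlap (-0.45 ± 0.22, adjusted p = 0.843). In WT it was -0.03, 0.21 and 0.27 at 2 h, against 0.61, 0.62 and 0.01 untreated, with overlap. Hspa8 B at 0.5 h was -0.12, -0.54 and -0.26 in WT, against 0.29, 0.07 and 0.48 untreated (-0.59 ± 0.22, adjusted p = 0.241), again without overlap.

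At 24 h the replicates of WT lay far apart for several members. Hspa8 A was 0.78, 0.51 and -0.92, Hspa8 B was -0.01, -0.51 and -0.31, Hspd1 was 0.50, 0.49 and -0.55, and Hsph1 was 0.42, 0.35 and -0.28 in WT replicates 1, 2 and 3. Replicate 3 was lowest for Hspa8 A, Hspd1 and Hsph1, mostly on its Cy3 array, which read -1.81 for Hspa8 A, -1.53 for Hspd1 and -0.87 for Hsph1. Hspb1 was 2.35, 0.95 and 1.49 in WT at 24 h, and replicate 2 read 2.54 with the sample in Cy5 but -0.64 with the sample in Cy3. In KO at 24 h Hspb1 was 2.11, 2.31 and 1.51.

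The ratios differed between the dye orientations, in size for some members and in sign for the HSP70 probes. With the sample in Cy5 and in Cy3, Hspa8 A averaged 0.50 and -0.06, Hspa8 B -0.43 and 0.22, and Hspa1a -0.33 and 0.22. Hspe1 averaged 1.01 over arrays with the sample in Cy5 and 0.12 over arrays with the sample in Cy3, and Hspd1 averaged 0.76 and 0.17. Hspb1 was nearer at 2.25 and 1.48. For the WT 12 h difference, Hspb1 gave 1.33 in Cy5 and 0.91 in Cy3, and Hspe1 gave 1.14 and 0.20, so both orientations had the same sign for these genes. Hspd1 gave 0.90 in Cy5 and 0.00 in Cy3, and Hsph1 gave 0.76 and -0.06.

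**Figure D4:**
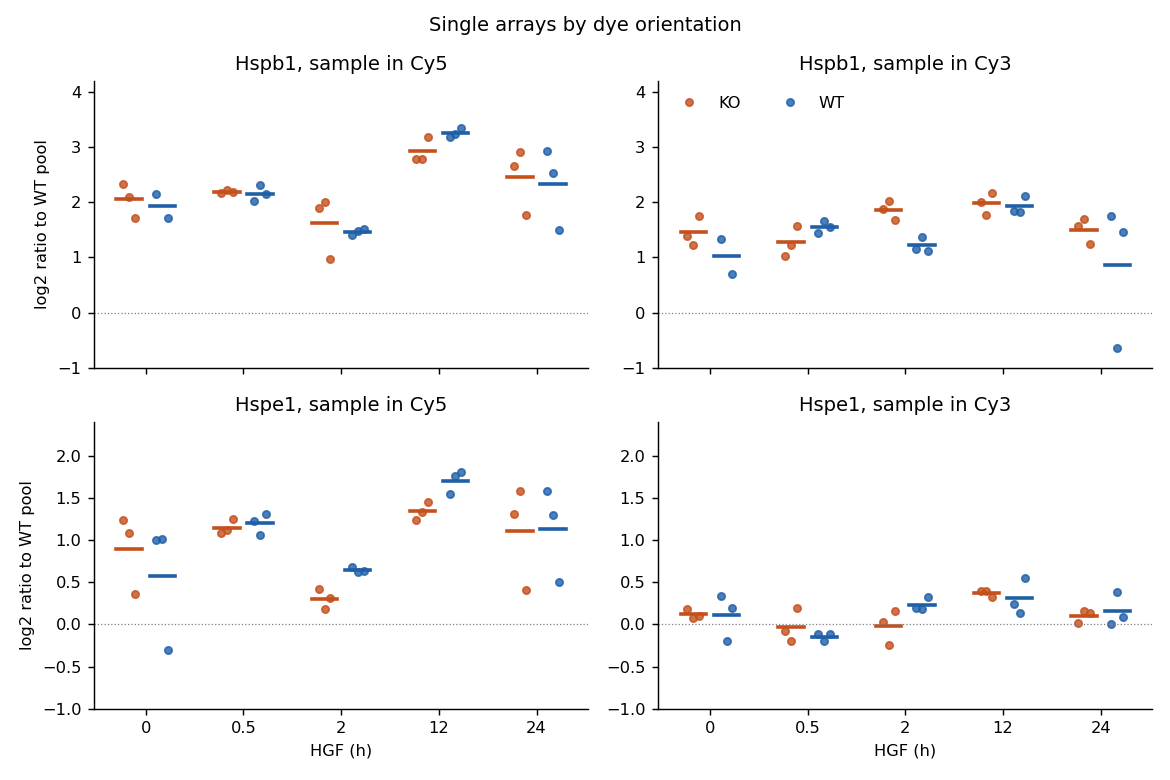
Log2 ratio to the WT pool on single arrays (vertical axis) by hours of HGF (horizontal axis) for Hspb1 (upper row) and Hspe1 (lower row), with the sample in Cy5 (left column) or Cy3 (right column) and KO left of WT at each time. Points are arrays and bars group means; Hspb1 lies above 0 on 29 of 29 Cy5 arrays and 28 of 29 Cy3 arrays, while Hspe1 lies near 0 in the Cy3 column.

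Some members varied together between replicates and others did not. Hspd1 and Hsph1 had the highest correlation over the 30 replicates (Pearson r = 0.93, with 0.79 in the 14 replicates of set C and 0.88 in the 11 of set D). Hspa8 A correlated with Hsph1 at 0.82 and with Hspd1 at 0.76. Hspd1 and Hspe1, which share the promoter stretch shown above, correlated at 0.75. For that pair r was 0.93 over Cy5 arrays and 0.00 over Cy3 arrays. Hspb1 had r between 0.14 and 0.60 with the members other than Hspa8 B. Hspa8 B had r between -0.39 and 0.02 with the other members, and Dnajb1 between -0.29 and 0.48. These values describe arrays that share a pool, dyes and array sets.

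Over the 10 group means, the non-member gene most like Hspa8 A was Hspa4 (Pearson r = 0.95), an HSP110 protein of the cytosol, followed by Acbd3 (0.95). For Hspb1 these were Bcl2a1d (0.97) and Kcnk4 (0.95), and for Hspa1a they were Bcl2a1d (0.94) and Arcn1 (0.92). Hspe1 was followed most closely by Fbxw8 (0.97) and Sf1 (0.97), Hspd1 by Dus1l (0.97) and Tsks (0.96), and Hsph1 by Pafah1b1 (0.97) and Ppp2ca (0.96). Dnajb1 had Mfsd6 (0.90) and Tcf7l2 (0.90), and Hspa8 B had 1700071G01Rik (0.94) and 1700012C14Rik (0.93). These are the best matches among all tested probes over 10 points, so the values are high by selection.

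Several partners of the HSP70 and HSP90 machines were called in the same comparison as Hspb1 and Hspe1. Their calls rest on the same untreated WT samples, and the alternative settings were run for member probes only. Over all probes tested in this comparison, 5.81% were called and the median was 0.02. Of 22 tested genes for other HSP70 and J proteins and HSP70 co-chaperones, 4 rose and 0 fell in WT at 12 h, with a median of 0.23. They were Hspa4 (0.98 ± 0.22, adjusted p = 0.0111), Bag4, a nucleotide exchange factor of HSP70 (0.54 ± 0.13), the J protein gene Dnajc21 (0.39 ± 0.12), and Dnaja1, a J protein named after its values were seen (0.70 ± 0.21). Of 9 tested HSP90 co-chaperones, 2 rose and 0 fell, with a median of 0.38 and 9 of 9 positive. These were Fkbp4, a prolyl isomerase bound to HSP90 in steroid receptor complexes (0.66 ± 0.17), and Chordc1 (0.87 ± 0.26, adjusted p = 0.0487). In KO at 12 h, where none of the 6 was called, Hspa4 differed by 0.38 ± 0.22, Bag4 by 0.13 ± 0.13, Dnaja1 by 0.15 ± 0.18, Dnajc21 by 0.01 ± 0.12, Fkbp4 by 0.34 ± 0.17 and Chordc1 by 0.72 ± 0.26. The difference of the 12 h responses of KO and WT was called for 0 of the 22 and 0 of the 9 genes. Over all probes it was called for 0.0754%. Between genotypes at 12 h, Dnajc21 was lower in KO (-0.43 ± 0.12, adjusted p = 0.0438).

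The TRiC chaperonin and prefoldin together fold actin and tubulin. Of 11 tested subunits of these, 1 rose and 0 fell in WT at 12 h, beside 5.81% of all probes called. This was the prefoldin gene Pfdn1 (0.73 ± 0.12, adjusted p = 0.00115), and the list's median was 0.48. The KO response of Pfdn1 at 24 h was below the WT response by 0.87 ± 0.17 (adjusted p = 0.0142). KO minus WT at 24 h was -0.65 ± 0.12 for Pfdn1 (adjusted p = 0.00182). Pfdn5, of the same list, went the other way in that comparison, at 1.00 ± 0.26 (adjusted p = 0.0222, n = 2 each). Of all probes 4.77% were called there. Of 12 other mitochondrial chaperones and proteases, 0 rose and 1 fell in WT at 12 h, beside the same 5.81%, with a median of 0.04. It was Clpx, the unfoldase of the ClpP protease (-0.82 ± 0.21, adjusted p = 0.0193). Of 3 other small heat shock proteins 0 were called at 12 h. In WT at 24 h, where 8.72% of all probes were called, 1 of the 3, Hspb8, fell (-0.81 ± 0.20, adjusted p = 0.0122). Of 2 tested genes of the heat shock factor list, 1 rose in WT at 24 h, beside the same 8.72%. This was Hikeshi, the nuclear carrier of HSP70 (0.49 ± 0.12, adjusted p = 0.0125).

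The chaperones of the endoplasmic reticulum, a separate system that answers to the unfolded protein response, are the chaperone list with most calls between genotypes. Averaged over the 5 times, 8 of 14 were lower in KO and 0 higher, beside 10.1% of all probes called, with a median of -0.54. Hspa5, the HSP70 of that compartment, differed by -0.75 ± 0.15 (adjusted p = 0.00128). For the 8 member probes the median was -0.07, and over all probes tested it was 0.00.

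**Figure D5:**
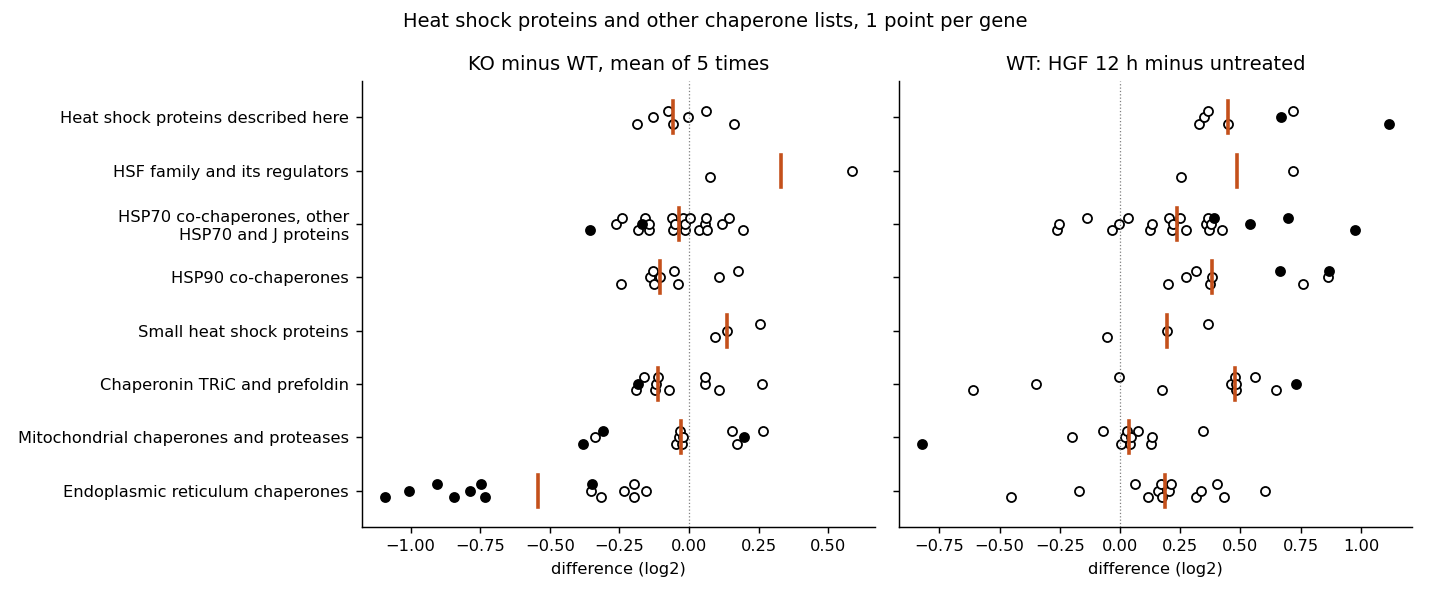
Difference (log2, horizontal axis) of each tested gene of 8 chaperone lists (rows, 1 probe per gene) for KO minus WT averaged over the 5 times (left) and for HGF 12 h minus untreated in WT (right). Filled points are called, bars mark list medians; the endoplasmic reticulum list has its median at -0.54 on the left, where none of the 7 member genes is filled.

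Some markers of hepatocytes and of other cells were called at the same 12 h comparison in WT, beside 5.81% of all probes. Of 7 tested hepatocyte markers 2 fell (Asgr1 by 1.50 and Apoa1 by 1.06 on the log2 scale), of 5 Kupffer cell markers 1 fell, of 4 stellate cell markers 1 fell, of 5 bile duct markers 1 rose and 1 fell, and of 4 endothelial, 3 lymphocyte and 2 red blood cell markers 0 were called. Ratios to a hepatocyte pool do not show how abundant a marker is, so no defining marker could be called absent, and in bulk samples fewer cells of a type and less RNA per cell cannot be told apart. Their part in the Hspb1 and Hspe1 differences was not tested.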

How the data were processed

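Deposited values were log2 ratios of 60 arrays, normalized by the authors before deposit; the method, the numerator and the log base are not given in the sources used here, and base 2 is inferred from the range (largest absolute value 11.6). Between 17356 and 21511 of the 21997 probes had a value on an array; precision is limited by the number of arrays. Of these probes, 16076 had 1 gene symbol in the platform annotation (15877 updated through the RefSeq gene table), 288 several and 5633 none. Arrays of both orientations were used as deposited. Of the 30 dye pairs, 23 correlated negatively as deposited (lowest r -0.68) and 20 did so after subtracting probe medians. A rule written earlier would have turned the Cy3 arrays, since the median correlation of dye pairs after subtracting probe medians was -0.12. It was not followed, because the 50 probes that differed most between KO and WT with the sample in Cy5 mostly had the same sign in Cy3 (66%, 62%, 88%, 96% and 90% at 0, 0.5, 2, 12 and 24 h). Of the 50 that differed most in Cy3, the shares were 32%, 48%, 86%, 92% and 90%. For HGF against untreated the shares by Cy5 were 48%, 14%, 86% and 86% in KO and 52%, 26%, 74% and 88% in WT at 0.5, 2, 12 and 24 h. By Cy3 they were 56%, 2%, 78% and 70% in KO and 66%, 58%, 54% and 68% in WT. The direction is thus not settled in every comparison, and turning is an alternative.

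Each array was centred on its median, both orientations were averaged, and probes with at least 2 of 3 such replicates in all 10 groups were tested (14580). A linear model with a mean for each group was fitted in limma 3.58.1 under R 4.3.3 (20 residual and 4.48 prior degrees of freedom), and values are log2 differences ± SE with Benjamini-Hochberg adjusted p, two-sided, called under 0.05. Groups shared 1 estimate of spread, although their residual SD ran from 0.164 to 0.429. Repeat numbers were not used as pairs, since 7 of 24 pairs of the same number correlated above 0.1, among them all 3 of untreated and 24 h WT. Times come from the titles, since the treatment field of 12 h samples says 0.5 h; the dose appears as nM in one field. WT 24 h replicate 2 had arrays in sets C and B and was counted in C. A list gene with several probes was represented by the one measured on the largest number of arrays. Named are all members, up to 4 called genes per chaperone list, and the 2 genes most like each member over group means. Members and lists were chosen with earlier results of these data known. Alternatives were scaling, filter, dye, array set, weights, block and left-out replicates.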

Additional observations from a re-analysis of the deposited data

How the results depend on the processing

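The fits varied 1 choice at a time in 16 settings, and each of the 30 replicates was left out in turn. Turning the Cy3 arrays and leaving out WT 0 h replicate 3 and KO 24 h replicate 2 together were chosen after seeing the data. Counts of called members at HGF 12 h in WT were 0 after scale normalization, with only the groups compared, with Cy3 arrays alone and with Cy3 arrays turned, 1 when all 3 replicates were required (a filter that removes Hspb1) and 1 without the 2 doubted replicates, 3 with single arrays and a dye term (Hspa8 A added), 3 with Cy5 arrays alone (Dnajb1 added), and 0 to 3 with a replicate left out. KO against WT at 0.5 h gave 1 call with only the groups compared, with array set as a term, without array sets A and B and with weights, and 0 to 1 with a replicate left out (1 without WT 24 h replicate 3). KO against WT averaged gave 1 with array set as a term and 1 without sets A and B, and 0 to 1 with a replicate left out. KO against WT at 2 h gave 1 after scale normalization. HGF 2 h gave 2 calls in KO and 1 in WT without sets A and B, where set and time cannot be told apart. HGF 24 h in WT gave 1 with array set as a term, 2 with Cy3 arrays alone and 1 with Cy3 arrays turned. The cause of these changes was not tested. The counts of the other 11 comparisons stayed 0 in every setting run. With genotype by repeat number as a replicate block (correlation -0.0023), the count at HGF 12 h in WT was 2 and no call changed. Repeat numbers correlated above 0.1 in all 3 pairs of untreated and 24 h WT (0.39, 0.45 and 0.67). A fit of these groups alone with repeat number as a term, added after seeing the data, gave a count of 0 at HGF 24 h in WT.

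The Hspb1 difference at HGF 12 h in WT ran from 0.21 (Cy3 arrays turned) to 1.33 (Cy5 arrays alone) over 15 settings, was called in 11 of them, and was 0.85 to 1.38 with a replicate left out. The Hspe1 difference ran from 0.20 (Cy3 arrays alone) to 1.14 (Cy5 arrays alone) over 16 settings, was called in 11 of them, and was 0.47 to 0.83 with a replicate left out. Neither changed sign. Both calls were lost without WT 12 h replicate 2 and without WT 12 h replicate 3 (adjusted p 0.0520 to 0.0950), that of Hspb1 also without WT 0 h replicate 2 (0.165) and that of Hspe1 without WT 0 h replicate 3 (0.164). Ratios to a pool give no absolute level, and 3 replicates per group limit the precision.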
